A study of Mus musculus with 14 samples.

Results

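Glycolysis and the response to low oxygen were followed through 34 genes in fibroblasts of the infarcted mouse heart: the oxygen-sensitive transcription factor subunits Hif1a and Epas1, glucose transporters, enzymes from hexokinase to lactate dehydrogenase, lactate exporters, kinases that hold back pyruvate oxidation, and targets of hypoxia-inducible factor (HIF). The genes were taken by symbol, with the row of the highest mean over the arrays where a symbol had more than 1. Of the 34 genes, 32 were found among the 19494 genes measured under a single symbol, and Gpi1 and Eno1 were not matched to a row and are not analysed here. The cells were sorted by green fluorescence from tamoxifen-treated TCF21-MerCreMer;R26GFP mice on a C57BL/6 background, so that every group, the uninjured one included, carried the same alleles and received tamoxifen. Fibroblasts came from the left ventricle of uninjured hearts (3 arrays) or, as the paper states, from the infarct region of injured hearts. The injured hearts were taken 3 days (3 arrays), 7 days (3 arrays), 2 weeks (2 arrays) and 4 weeks (3 arrays) after myocardial infarction (MI). The study made the MI by permanent coronary ligation. The region sampled thus differs between the uninjured and the MI groups. The ages of the animals that gave these arrays are not stated in the labels. Cre under the Tcf21 locus labels cells that expressed Tcf21 when tamoxifen was given, together with their descendants, and the sort takes all cells that carry the label.

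In cells with enough oxygen, prolyl hydroxylases of the EGLN family mark the HIF alpha subunits, which the von Hippel-Lindau protein then sends for degradation. In low oxygen the subunits persist, pair with ARNT and bind short DNA elements beside their target genes, which include most glycolytic enzymes, glucose and lactate transporters, and EGLN3 itself, whose product limits the response. Glycolysis splits glucose into pyruvate and yields ATP without oxygen, and proliferating cells also draw on it for building blocks. After coronary occlusion the infarct is poor in oxygen, and its fibroblasts divide, migrate and lay down scar.

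The core of the DNA element that HIF binds is ACGTG or GCGTG. These letters, or their complements CACGT and CACGC, were searched in RefSeq promoter windows of 300 bases (250 before and 50 after the transcription start, build GRCm38.p6), of which 29 of the 32 measured genes had at least 1. The ACGTG form is part of the E-box CACGTG, to which other factors bind, and CACGTG was present in windows of 5 of the 29 genes. In 27 of 29 genes (93.1%) at least 1 window held a core, against 46.7% of all 27025 genes with a window and 67.8% of the 7432 genes with a window whose signal was above background in every array. Counted by window, 31 of 39 (79.5%) held a core, against 43.8% of all 32851 windows. Eno2 and Tpi1 had none in their windows. The genes were listed partly as known HIF targets, so these shares describe the list and were not tested. A match of 5 letters is no evidence of binding. The windows of 3 genes that rose at 3 days and of 3 genes that fell at some time are printed here, cores in capitals, because similar elements stood before genes that moved in opposite directions.
Pgk1 (chrX:106186850-106187149, plus strand): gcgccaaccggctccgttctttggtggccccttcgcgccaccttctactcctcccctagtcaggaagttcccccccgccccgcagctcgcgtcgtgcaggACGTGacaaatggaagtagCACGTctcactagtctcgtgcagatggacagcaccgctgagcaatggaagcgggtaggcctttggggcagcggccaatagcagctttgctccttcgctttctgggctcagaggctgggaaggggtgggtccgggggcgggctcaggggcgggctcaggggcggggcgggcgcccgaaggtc
Pgam1 (chr19:41911621-41911920, plus strand): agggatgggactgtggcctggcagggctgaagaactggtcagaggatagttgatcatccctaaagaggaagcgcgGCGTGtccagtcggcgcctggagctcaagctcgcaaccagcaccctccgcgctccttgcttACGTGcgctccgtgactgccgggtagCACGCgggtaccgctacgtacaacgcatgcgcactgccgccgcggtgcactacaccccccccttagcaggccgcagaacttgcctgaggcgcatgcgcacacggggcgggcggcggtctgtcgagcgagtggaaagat
Slc16a3 (chr11:120948817-120949116, plus strand): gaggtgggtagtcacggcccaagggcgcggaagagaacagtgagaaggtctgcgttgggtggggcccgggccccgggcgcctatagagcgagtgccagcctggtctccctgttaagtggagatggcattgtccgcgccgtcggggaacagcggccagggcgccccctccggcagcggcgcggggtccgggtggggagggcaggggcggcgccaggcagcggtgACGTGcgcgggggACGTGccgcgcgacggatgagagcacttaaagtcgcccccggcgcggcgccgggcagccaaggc
Adm (chr7:110627407-110627706, plus strand): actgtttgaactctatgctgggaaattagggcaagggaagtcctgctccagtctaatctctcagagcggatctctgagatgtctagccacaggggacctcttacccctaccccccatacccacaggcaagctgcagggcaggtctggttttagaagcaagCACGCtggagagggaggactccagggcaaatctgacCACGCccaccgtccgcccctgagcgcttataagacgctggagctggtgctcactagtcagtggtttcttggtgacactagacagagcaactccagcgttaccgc
Ankrd37 (chr8:45999801-46000100, minus strand): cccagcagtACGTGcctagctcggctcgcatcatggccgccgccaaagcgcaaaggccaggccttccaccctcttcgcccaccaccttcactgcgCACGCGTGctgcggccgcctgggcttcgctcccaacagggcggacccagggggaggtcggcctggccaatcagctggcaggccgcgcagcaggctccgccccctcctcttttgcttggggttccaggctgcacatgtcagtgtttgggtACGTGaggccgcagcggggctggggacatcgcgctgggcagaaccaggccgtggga
Egln3 (chr12:54203825-54204124, minus strand): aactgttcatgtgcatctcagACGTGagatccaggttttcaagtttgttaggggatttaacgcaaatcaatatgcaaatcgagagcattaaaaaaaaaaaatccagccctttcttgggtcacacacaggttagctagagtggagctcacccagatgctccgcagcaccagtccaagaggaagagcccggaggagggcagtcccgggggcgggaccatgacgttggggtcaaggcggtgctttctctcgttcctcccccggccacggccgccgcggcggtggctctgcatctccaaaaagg
Pgk1 held 2 cores, Pgam1 3 and Slc16a3 2, while Adm held 2, Ankrd37 4 and Egln3 1. Overlapping cores run together in the Ankrd37 window.

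Values are log2 signals from Clariom S Mouse arrays as the authors deposited them, and ranged from 2.66 to 19.5 over the genes. Background was set at 5.89, the level below which 95% of 1410 olfactory and vomeronasal receptor genes lie. Array medians lay between 6.34 and 6.46, and arrays of a group correlated at 0.971 to 0.992. A gene was called at an adjusted p under 0.05 from limma, fitted over all genes and all 14 arrays with Benjamini-Hochberg adjustment. Statements that groups did not overlap describe the same values that entered this fit. The share of such genes over all genes was not counted. Levels are not compared between genes, since probe sets differ in brightness. The labels call the replicates biological but do not say whether each came from separate animals, so the p-values measure the spread between these arrays. The 5 arrays numbered 1, 1 from every group, differ from the rest: 21 rows of the table hold identical values in all 5, and 0 rows do so in the other 9. They are treated below as a separate array set, with values with the set as a block, and in each set, given beside results or together after them. All 9 measured fibroblast markers were above background in every array, with list means of 15.2 to 16.1 in the 14 arrays. In bulk samples such as these, fewer cells of a type and less RNA per cell cannot be told apart.

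Of the 32 genes, 24 were above background in all 14 arrays. Slc2a3 (a high-affinity glucose transporter), Aldoc (an aldolase of brain), Eno2 (the neuronal enolase) and Ldhb (the lactate dehydrogenase subunit of heart muscle) were above it in none. Pdk1 was above background in 13 arrays, Pdk4 in 5, Car9 in 4 and Pfkfb4 in 3. The isoforms that stood above background were thus Slc2a1, Aldoa and Ldha, with Hk1, Hk2, Pfkl and Pfkp.

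At 3 days after MI the glycolytic route was higher at several of its steps. The 9 genes that rose were Hif1a, the glucose transporter Slc2a1, the phosphofructokinase Pfkl, the lower-pathway enzymes Tpi1, Pgk1, Pgam1 and Pkm, the lactate dehydrogenase Ldha and the lactate exporter Slc16a3, with folds from 1.69 (Ldha) to 5.57 (Slc16a3). Adm and Ankrd37, both well-known HIF targets, fell. These 11 of 32 genes (34.4%) compare with 12.5% of all 19494 genes called at this time, 6.74% higher and 5.81% lower. The median log2 fold change was 0.12 over the 32 genes and -0.02 over all genes. At 7 days 8 genes were called (25%, against 8.11% of all genes), 4 higher (4.62% of all genes) and 4 lower (3.49%). At 2 weeks there were 2 (6.25%, against 2.48%) and at 4 weeks 2 (6.25%, against 1.91%). All 4 comparisons share the uninjured arrays. Limma's F test called 14 genes as different among the 5 groups (15.4% of all genes passed it), and 10 of the 14 had their highest mean at 3 days. The share with that peak among all genes that passed was not counted. Over all genes, too, 3 days had the largest share called against uninjured.

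**Figure D1:**
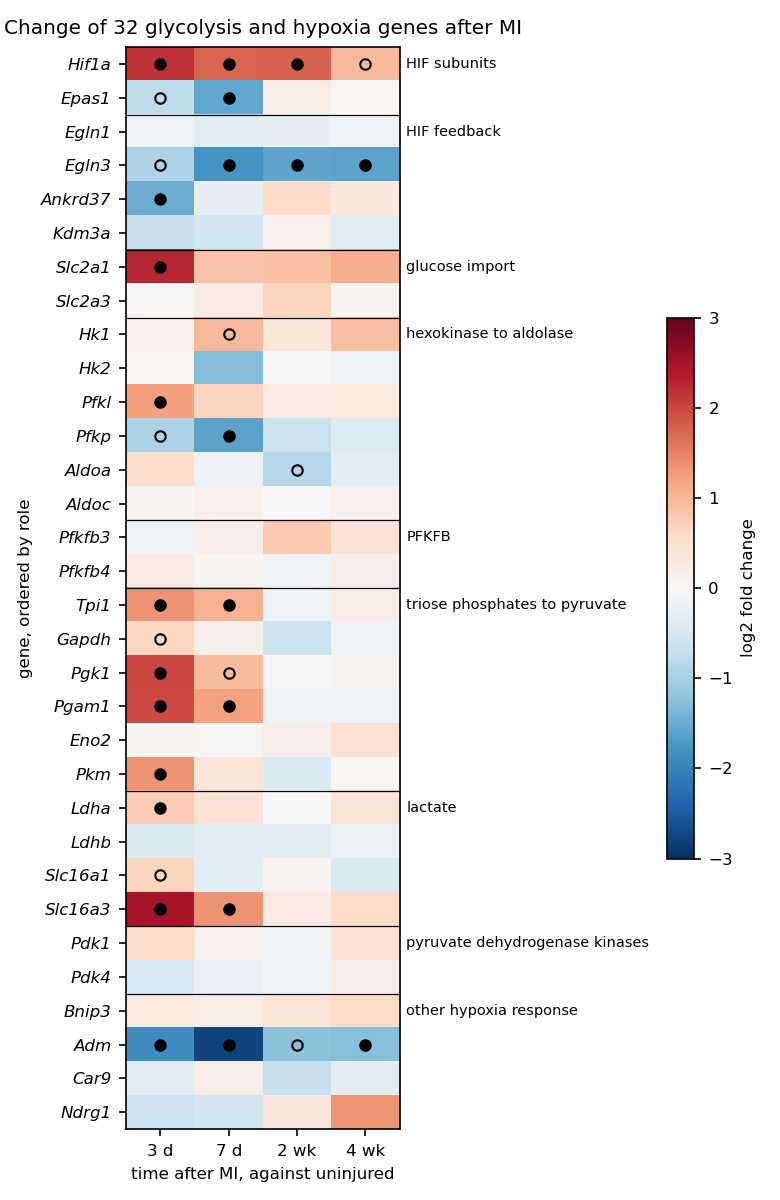
Log2 fold change against uninjured fibroblasts (colour) of the 32 measured genes (rows, by role) at 4 times after MI (columns). Filled circles mark an adjusted p under 0.05 from limma and number 11, 8, 2 and 2 from left to right. Open circles mark genes that missed it there but reached it with the array set as a block.

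**Figure D2:**
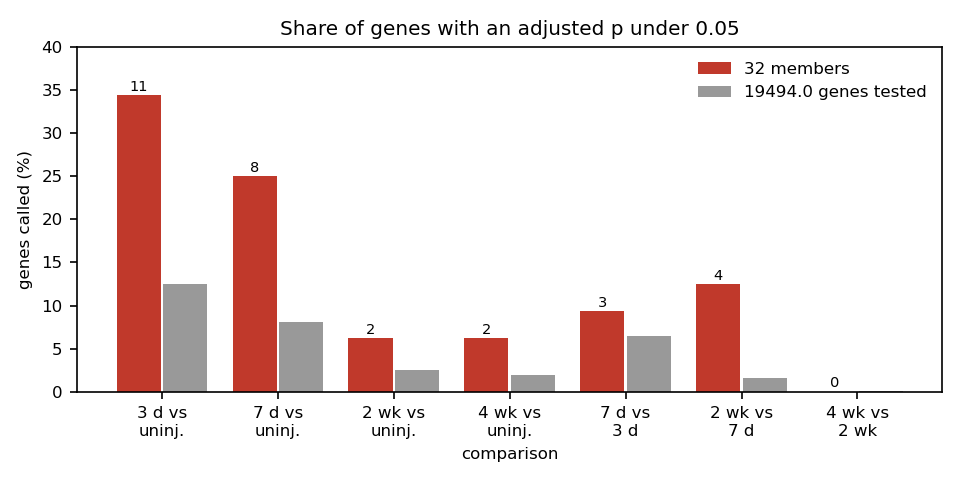
Share of genes called (percent, y axis) in each of 7 comparisons (x axis) among the 32 genes (red, with their number above the bar) and among all 19494 genes tested (grey). The shares of the 32 genes were 34.4% at 3 days and 25% at 7 days, and 6.25% at 2 and at 4 weeks.

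Hif1a, the HIF-1 alpha subunit, had log2 signals of 11.96, 11.56 and 11.45 in uninjured fibroblasts and of 14.52, 13.47 and 13.50 at 3 days. The arrays of 7 days gave 13.62, 12.96 and 13.59, those of 2 weeks 13.65 and 13.22, and those of 4 weeks 13.27, 12.35 and 12.23. Every array after MI was thus above every uninjured array. The transcript was 4.51-fold higher at 3 days (log2 fold change 2.17 ± 0.34 SE, adjusted p = 0.00065 by limma), 3.33-fold higher at 7 days (adjusted p = 0.0049) and 3.43-fold higher at 2 weeks (adjusted p = 0.0219). At 4 weeks the difference of 0.96 ± 0.34 had an adjusted p of 0.281, and of 0.0163 with the array set as a block. The call at 2 weeks rests on few arrays: the adjusted p was 0.251 and 0.107 without 2-week replicate 1 or 2, and 0.0795 and 0.0847 without uninjured replicate 2 or 3. It was also lost with a block for Y-linked gene signal, described below. HIF-1 alpha is regulated mainly through the stability of the protein, which these arrays do not measure.

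Epas1, which encodes the HIF-2 alpha subunit, moved the other way. Its signals of 11.82, 11.53 and 11.70 in uninjured fibroblasts compare with 10.67, 9.60 and 10.10 at 7 days, and the 2 groups did not overlap. It was 2.95-fold lower at 7 days (log2 fold change -1.56 ± 0.27 SE, adjusted p = 0.0019 by limma). At 3 days its 3 arrays, at 11.17, 10.79 and 10.79, also lay below the uninjured ones, with a difference of -0.77 ± 0.27 (adjusted p = 0.0842, and 0.0194 with the array set as a block). At 2 weeks Epas1 was back at 12.25 and 11.55, and this step up from 7 days was 3.44-fold (adjusted p = 0.0090, and 0.15 without 2-week replicate 1). The 4-week arrays, at 11.65, 11.89 and 11.70, overlapped the uninjured ones. Endothelial cells also express Epas1. The mean of 9 endothelial markers was 9.13 in 2-week replicate 1, the highest of the 14 arrays, and 6.89 in 2-week replicate 2, with Kdr at 11.58 and 6.88 and Cdh5 at 11.67 and 6.88. At 7 days that mean was 7.66 to 8.21, within the 7.42 to 8.41 of the uninjured arrays, but single markers moved in opposite directions. Erg was at 11.24, 9.46 and 11.57 at 7 days, against 5.96, 6.65 and 6.38 in uninjured fibroblasts. Tek was at 8.82, 6.835 and 6.785, against 11.91, 10.43 and 10.34. The part of endothelial RNA in the Epas1 values was not tested.

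Among the genes that restrain HIF or respond to it early, Egln3, the prolyl hydroxylase that HIF induces, was lower from 7 days on. Its signals were 9.20, 8.81 and 9.39 in uninjured fibroblasts, 8.97, 7.96 and 7.66 at 3 days, and 7.63, 7.61 and 6.86 at 7 days. At 2 weeks they were 7.59 and 7.49, and at 4 weeks 7.62, 7.47 and 7.50. From 7 days on, every array was below every uninjured one, while 1 of the 3-day arrays lay within the uninjured range. Egln3 was 3.40-fold lower at 7 days (log2 fold change -1.77 ± 0.31 SE, adjusted p = 0.0025), 3.01-fold lower at 2 weeks (adjusted p = 0.0262) and 3.03-fold lower at 4 weeks (adjusted p = 0.0158), all by limma. The 3-day difference of -0.93 ± 0.31 had an adjusted p of 0.0718, and of 0.022 with the set block. A block for Y-linked gene signal, described below, removed the 2-week call. The later calls depend on single arrays: at 2 weeks the adjusted p was 0.103 without uninjured replicate 3 and 0.18 and 0.234 without 2-week replicate 1 or 2, and at 4 weeks it was 0.0777, 0.0596 and 0.0558 without uninjured replicate 3 or 4-week replicate 2 or 3.

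Egln1, the hydroxylase that sets the level of HIF in most cells, was called at no time, with log2 fold changes from -0.34 ± 0.24 at 7 days to -0.09 ± 0.24 at 4 weeks. Kdm3a, a histone demethylase induced by HIF, was not called either, and its largest difference was -0.69 ± 0.39 at 3 days. Ankrd37, an ankyrin repeat protein induced by HIF, had signals of 10.79, 10.85 and 11.08 in uninjured fibroblasts and of 9.64, 8.98 and 9.62 at 3 days. All 3 of these arrays were below the uninjured ones, and the gene was 2.81-fold lower (log2 fold change -1.49 ± 0.33 SE, adjusted p = 0.0079 by limma). At 7 days its arrays, at 10.09, 10.73 and 11.00, overlapped those of uninjured fibroblasts, and the step up from 3 days was 2.29-fold (adjusted p = 0.0483). That step lost its call without any 1 of 12 arrays, up to 0.203 without 7-day replicate 3.

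Slc2a1, the glucose transporter GLUT1, gave 10.49, 11.30 and 11.43 in uninjured fibroblasts and 14.27, 12.24 and 13.53 at 3 days. The groups did not overlap, and the gene was 4.84-fold higher (log2 fold change 2.28 ± 0.44 SE, adjusted p = 0.0032 by limma). The size depended on the array set, with a difference of 3.78 between the 2 arrays numbered 1 and of 1.52 among the others (adjusted p = 0.0128). At 7 days the arrays lay at 11.57, 12.04 and 12.20, all above the uninjured ones, without a call. The arrays of 2 weeks, at 11.93 and 11.99, and of 4 weeks, at 11.51, 12.54 and 12.44, also lay above them. Neither time was called, and the 4-week difference was 1.09 ± 0.44 (adjusted p = 0.415 by limma).

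In the first steps of glycolysis, Pfkl, the liver-type phosphofructokinase at the committing step, gave 8.03, 8.44 and 8.82 in uninjured fibroblasts and 10.07, 9.63 and 9.29 at 3 days. It was 2.35-fold higher at that time (adjusted p = 0.0085 by limma), with no overlap between the groups. The log2 difference was 2.04 between the 2 arrays numbered 1 and 0.83 among the others (adjusted p = 0.036). Pfkp, the platelet-type enzyme of the same step, went down instead. Its signals were 11.87, 10.99 and 10.68 in uninjured fibroblasts and 10.40, 9.14 and 9.19 at 7 days, when it was 3.04-fold lower (log2 fold change -1.61 ± 0.44 SE, adjusted p = 0.0395). That call was lost without any 1 of 8 arrays, the most without 7-day replicate 3 (adjusted p = 0.162), and was 0.00038 with the set block. Pfkp at 3 days, at -0.95 ± 0.44, was not called (adjusted p = 0.218 by limma). It was called with that block (adjusted p = 0.0106) and with the replicate number as a block (adjusted p = 0.0127).

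Hexokinases phosphorylate glucose on entry. Hk1 and Hk2 were called at no time. Hk2 had the widest spread of the 32 genes at 4 weeks, with arrays at 11.08, 13.98 and 13.99, and was uneven at 3 days too, with 14.21, 11.70 and 13.77, against 12.49, 13.58 and 13.43 in uninjured fibroblasts. The difference at 3 days was 0.06 ± 0.74, an error at which a change of several fold was not detectable. Hk1 was 0.98 ± 0.39 higher at 7 days on the log2 scale (adjusted p = 0.179 by limma, and 0.0331 with the set block). At 4 weeks it was 0.91 ± 0.39 higher (adjusted p = 0.478, and 0.109 with the set block). Its arrays of 7 days (9.41, 8.70 and 8.545) and 4 weeks (8.64, 9.20 and 8.60) lay above the uninjured 8.49, 7.655 and 7.57. Among the arrays not numbered 1 the differences were 1.01 at 7 days and 1.29 at 4 weeks. Aldoa, the aldolase of most tissues, differed among the 5 groups by the F test (adjusted p = 0.0070). Its highest signals were those of 3 days (15.01, 14.69 and 15.01) and its lowest those of 2 weeks (13.71 and 13.34), with the uninjured arrays between them at 14.09, 14.55 and 14.53. Neither time was called against uninjured fibroblasts (adjusted p = 0.131 and 0.0689), and the 2-week difference was called with the set block (adjusted p = 0.0331). The bifunctional regulators Pfkfb3 and Pfkfb4 were not called at any time.

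Of the 6 genes measured for the steps from triose phosphates to pyruvate, 4 rose at 3 days. Pgam1, phosphoglycerate mutase, gave 10.85, 11.27 and 11.55 in uninjured fibroblasts, 13.28, 13.16 and 13.20 at 3 days, and 12.10, 12.83 and 12.36 at 7 days. It was 3.97-fold higher at 3 days (log2 fold change 1.99 ± 0.24 SE, adjusted p = 8.2e-05 by limma) and 2.31-fold higher at 7 days (adjusted p = 0.0052), with no overlap with the uninjured arrays at either time. At 2 weeks (11.28 and 10.92) and 4 weeks (11.11, 10.86 and 11.26) its arrays lay within the uninjured range.

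Pgk1, phosphoglycerate kinase, makes ATP without oxygen. Its signals were 6.54, 7.25 and 7.12 in uninjured fibroblasts, 9.14, 9.12 and 8.66 at 3 days, and 7.39, 8.49 and 7.90 at 7 days. The 3 groups stood in steps without overlap, and the gene was 4.01-fold higher at 3 days (adjusted p = 0.00031 by limma). The difference of 0.96 ± 0.28 that remained at 7 days had an adjusted p of 0.0559, and of 0.0237 with the set block. From 3 to 7 days Pgk1 went down 2.06-fold (adjusted p = 0.0427), a call that was lost without any 1 of 10 arrays (up to 0.142, without 3-day replicate 2).

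Tpi1, triose phosphate isomerase, was tightly grouped in uninjured fibroblasts, at 13.29, 13.30 and 13.39. It gave 14.85, 14.63 and 14.52 at 3 days and 13.85, 14.67 and 14.56 at 7 days, all above the uninjured arrays. It was 2.53-fold higher at 3 days (adjusted p = 0.0013) and 2.05-fold higher at 7 days (adjusted p = 0.0110, and 0.0597 and 0.0581 without 7-day replicate 2 or 3), both by limma. Pkm, pyruvate kinase, had signals of 14.05, 14.74 and 15.26 in uninjured fibroblasts and of 16.22, 15.92 and 15.94 at 3 days. It was 2.54-fold higher at 3 days (adjusted p = 0.0040), with a log2 difference of 2.17 between the 2 arrays numbered 1 and of 0.93 among the others (adjusted p = 0.0292). At 7 days its arrays, at 14.92, 15.41 and 14.92, overlapped the uninjured ones. The array values are gene-level and do not separate the PKM1 and PKM2 isoforms.

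Gapdh, often taken as a reference gene, was not called at any time, nor by the F test over the 5 groups (adjusted p = 0.0878, and 0.0088 with the set block). Its signals were 13.76, 14.78 and 14.71 in uninjured fibroblasts, 14.99, 15.13 and 15.05 at 3 days, and 13.62 and 13.90 at 2 weeks. The 3-day difference of 0.64 ± 0.29 had an adjusted p of 0.196, and of 0.0354 with the set block. Several glycolytic genes, Gapdh and Pgk1 among them, have processed pseudogenes, and whether probes read them was not tested.

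**Figure D3:**
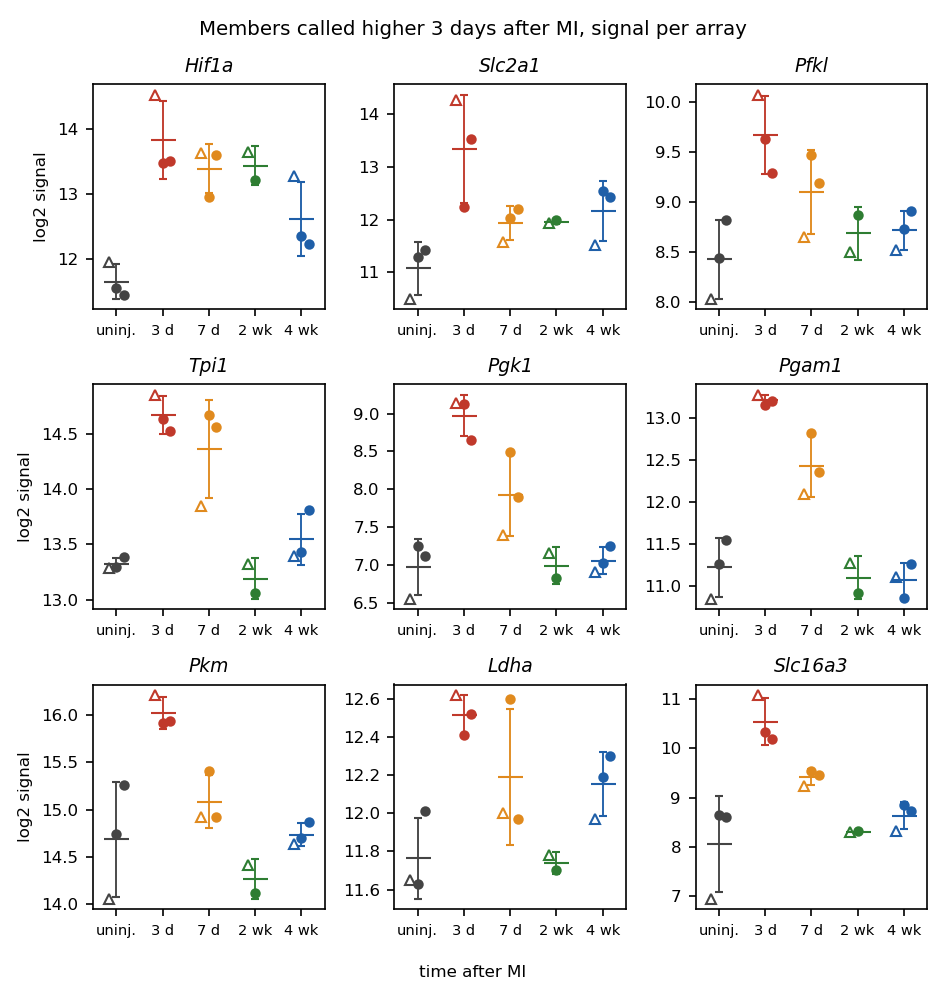
Log2 signal per array (y axis) by time after MI (x axis) for the 9 genes called higher at 3 days, with the mean (bar) and SD (error bar) of each group; open triangles are the arrays numbered 1. In each panel all 3 arrays of 3 days lie above all 3 uninjured arrays, from which the genes were called, so this is no separate test.

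At the end of the pathway, Slc16a3, the lactate exporter MCT4, gave 6.94, 8.66 and 8.60 in uninjured fibroblasts and 11.09, 10.34 and 10.20 at 3 days. It was 5.57-fold higher (log2 fold change 2.48 ± 0.39 SE, adjusted p = 0.00062 by limma). Uninjured replicate 1 was low, and the log2 fold change was 1.92 at the least over the fits that each left out 1 array. The log2 difference was 4.15 between the 2 arrays numbered 1 and 1.64 among the others (adjusted p = 0.00038). At 7 days the signals of 9.24, 9.55 and 9.46 again lay above the uninjured arrays, 2.55-fold on average (adjusted p = 0.0462). Without uninjured replicate 1 that log2 fold change was 0.79 against 1.35 (adjusted p = 0.107), and the call was lost without any 1 of 10 arrays. Slc16a1, the transporter MCT1, which moves lactate in both directions, gave 7.86, 7.95 and 8.04 in uninjured fibroblasts and 8.91, 8.47 and 8.48 at 3 days. The groups did not overlap, yet the rise of 0.67 ± 0.23 was not called (adjusted p = 0.0741, and 0.0418 with the set block). At 7 days its signals of 7.48, 7.61 and 7.85 lay below the uninjured ones, and the 1.97-fold fall from 3 days was called (adjusted p = 0.0189, and 0.0884, 0.0604 and 0.0569 without 3-day replicate 1 or 7-day replicate 1 or 2).

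Ldha, the subunit that turns pyruvate into lactate, gave 11.65, 11.63 and 12.01 in uninjured fibroblasts and 12.62, 12.41 and 12.52 at 3 days. The groups did not overlap, and the rise was 1.69-fold (log2 fold change 0.76 ± 0.21, adjusted p = 0.0288 by limma). The adjusted p rose to between 0.0586 and 0.109 without uninjured replicate 1 or 2 or any 1 of the 3-day arrays. Pdk1 and Pdk4, kinases that switch off pyruvate dehydrogenase and so hold pyruvate back from the mitochondria, were called at no time and lay near background.

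Adm showed the largest fall of the 32 genes. It encodes adrenomedullin, a vasodilator peptide that HIF induces in many cells. Its signals were 15.26, 14.74 and 14.61 in uninjured fibroblasts, 13.08, 12.95 and 12.99 at 3 days, and 12.53, 12.36 and 11.36 at 7 days. The 2-week arrays gave 13.79 and 13.50 and the 4-week arrays 13.72, 13.48 and 13.54, so that every array after MI was below every uninjured array. Adm was 3.64-fold lower at 3 days (adjusted p = 0.00047) and 6.89-fold lower at 7 days (log2 fold change -2.78 ± 0.28 SE, adjusted p = 2.6e-05), both by limma. From 7 days to 2 weeks it rose 2.95-fold (adjusted p = 0.0229, and 0.223 and 0.155 without 2-week replicate 1 or 2). It was still 2.44-fold lower at 4 weeks than in uninjured fibroblasts (adjusted p = 0.0290), a call that was lost without any 1 of the 6 uninjured and 4-week arrays (0.051 to 0.107). The 2-week difference of -1.23 ± 0.31 had an adjusted p of 0.0596, and of 0.0087 with the set block.

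The other hypoxia genes on the list were not called. Bnip3, which drives removal of mitochondria, lay between 6.72 and 7.71 in all arrays. Ndrg1, a stress gene of differentiating cells, spread widely, from 9.93 in 3-day replicate 2 to 14.12 in 4-week replicate 1, and its 3 arrays of 4 weeks (14.12, 13.55 and 13.72) lay above all 3 uninjured arrays (11.40, 13.12 and 12.89). The difference at 4 weeks was 1.33 ± 0.63 (adjusted p = 0.589). Car9, a carbonic anhydrase strongly induced by HIF in tumours, had means of 5.09 to 5.96, around background. In 3-day replicate 2 Slc2a1, Hk2 and Ndrg1 each had the lowest signal of the 3-day arrays.

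**Figure D4:**
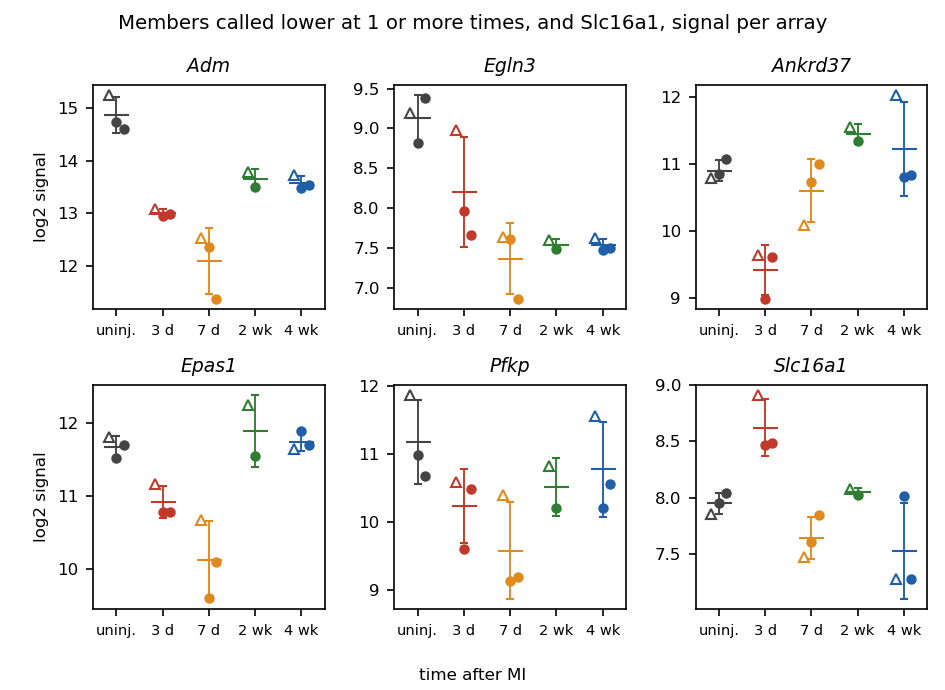
Log2 signal per array (y axis) by time after MI (x axis) for the 5 genes called lower than in uninjured fibroblasts at 1 or more times and for Slc16a1, with the mean (bar) and SD (error bar) of each group; open triangles are the arrays numbered 1. All arrays of Adm after MI lie below the uninjured arrays, while Ankrd37 is low at 3 days.

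Between neighbouring times, 3 of the 32 genes were called from 3 to 7 days (9.38%, against 6.48% of all genes): Pgk1 and Slc16a1 fell and Ankrd37 rose. From 7 days to 2 weeks 4 were called (12.5%, against 1.59% of all genes). Epas1 and Adm rose, while Tpi1 went down 2.26-fold (adjusted p = 0.0364) and Pgam1 2.52-fold (adjusted p = 0.0224 by limma). Tpi1 lost its call without any 1 of 8 arrays. Without 2-week replicate 1 or 2 the adjusted p of Tpi1 was 0.154 and 0.336 and that of Pgam1 0.11 and 0.284, and both lost their calls without 7-day replicate 2 (0.139 and 0.0815) or 3 (0.114 and 0.0593). From 2 to 4 weeks 0 genes were called by limma (0.0256% of all genes were), with 1 gene, Aldoa, at an unadjusted p under 0.05.

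For the genes called, the array sets gave the same directions. With the set as a block all 11 calls of 3 days and all 8 of 7 days were kept, and 16 and 10 genes were called in all (19.7% and 13.1% of all genes). Within the 9 arrays not numbered 1, 10 of the 11 and 8 of the 8 were kept, and Ldha was lost (adjusted p = 0.122). The single difference between the 2 arrays numbered 1 had the same sign for all 11 and all 8. These genes were called with both sets in the fit, so this agreement is partly built in and is no separate test. At 3 days this log2 difference was 2.56 for Hif1a, 1.56 for Tpi1, 2.60 for Pgk1, 2.43 for Pgam1 and 0.97 for Ldha, against 1.99, 1.23, 1.71, 1.77 and 0.65 in the other arrays. For Adm and Ankrd37 it was -2.18 and -1.15, against -1.71 and -1.67. The rises at 3 days were thus larger in the arrays numbered 1 for all 9 genes. At 7 days the difference was 1.66 for Hif1a, 0.56 for Tpi1, 1.25 for Pgam1 and 2.30 for Slc16a3, against 1.78, 1.27, 1.18 and 0.88 in the other arrays. For Epas1, Pfkp, Egln3 and Adm it was -1.15, -1.47, -1.56 and -2.73, against -1.77, -1.67, -1.87 and -2.82. The steps were uneven as well. From 3 to 7 days the arrays numbered 1 gave -1.75 for Pgk1, -1.44 for Slc16a1 and 0.45 for Ankrd37, and the others -0.69, -0.75 and 1.57. From 7 days to 2 weeks they gave -0.53 for Tpi1 and -0.82 for Pgam1, and the others -1.56 and -1.68. At 2 weeks the block called 4 genes (4.96% of all genes), Aldoa and Adm in addition, and from 3 to 7 days 9 (13%). Within the arrays not numbered 1 Adm at 4 weeks (adjusted p = 0.0782) and Pgk1 (0.136) and Slc16a1 (0.104) from 3 to 7 days were not called. Y-linked genes were not above background in 4 arrays, 2 of them the 2-week arrays. With this difference as a block 0 genes were called at 2 weeks, so Hif1a and Egln3 lost their calls there. Since both 2-week arrays share this trait, it cannot be fully told apart from time.

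Markers of dividing cells and of macrophages, both of which can be strongly glycolytic, moved with these times. The mean log2 signal of 11 cell cycle genes was 6.28 to 6.48 in uninjured arrays, 10.2 to 11.0 at 3 days, 8.09 to 8.92 at 7 days and 6.10 to 6.21 at 2 and 4 weeks, and 10 of the 11 genes were called higher at 3 days. The list of 13 macrophage genes had means of 5.53 to 6.00 in uninjured arrays, 5.98 to 7.41 at 3 days, 8.52 to 10.5 at 7 days, 6.22 to 6.84 at 2 weeks and 5.54 to 6.19 at 4 weeks, with 11 of the 13 called higher at 7 days. The 14 cardiomyocyte genes had means of 6.76 to 8.03 in uninjured arrays and of 6.35 to 6.45 at 3 days. The 9 endothelial genes had means of 7.42 to 8.41 in uninjured arrays and of 6.12 to 6.81 at 3 days, when 4 to 8 of the 9 were above background and 2 were called lower (7 without the arrays numbered 1). The 2 erythroid genes had means of 7.97 to 8.45 in uninjured arrays and of 7.10 to 7.47 at 3 days, when 1 was called lower. Of all genes, the fit over all 14 arrays called 6.74% higher and 5.81% lower at 3 days, and 4.62% higher at 7 days. Lymphocyte genes were at most 1 of 7 above background in any array, and neutrophil genes at most 2 of 7. The part of dividing cells, macrophages or RNA of cardiomyocytes, endothelial or erythroid cells in the changes of the 32 genes was not tested.

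**Figure D5:**
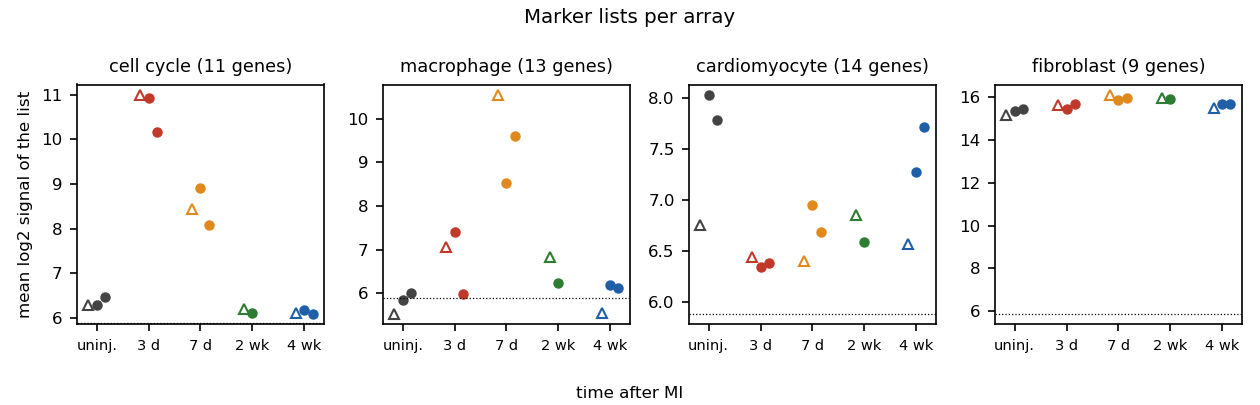
Mean log2 signal of 4 marker lists (panels) per array (y axis) by time after MI (x axis); open triangles are the arrays numbered 1 and the dotted line is background at 5.89. Cell cycle genes are highest at 3 days, at 10.2 to 11.0, and macrophage genes at 7 days, at 8.52 to 10.5.

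The remaining genes of the pathway were taken from lists that were not picked for how they moved, though earlier results of these arrays were known. Of 19 other glycolytic isozymes and transporters 0 were called higher and 2 lower at 3 days (10.5%, against 12.5% of all genes), with a median of -0.18. In each 3-day array 6 of the 19 were above background, and 7 to 8 in the uninjured arrays. Galm, which converts the anomers of galactose and glucose, was 3.35-fold lower (adjusted p = 0.0033). Pgam2, the muscle form of the mutase, lay at 6.24, 6.50 and 6.67 in uninjured arrays and below background at 3 days. Of 11 genes of pyruvate entry into mitochondria, 2 were higher and 1 lower at 3 days (27.3%, against 12.5%). Pdk3, a further pyruvate dehydrogenase kinase, gave 7.01, 7.36 and 7.27 in uninjured fibroblasts and 10.16, 10.27 and 9.74 at 3 days. It was 7.16-fold higher at 3 days (adjusted p = 7.3e-06), 4.14-fold at 7 days and 3.08-fold at 2 weeks, while Pdk2 was 2.86-fold lower at 3 days (adjusted p = 0.0018), all by limma. The kinases called were thus not the 2 on the list of 34.

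Among 16 regulators of HIF, 2 were higher and 2 lower at 3 days (25%, against 12.5% of all genes). Cul2 and Eloc, parts of the ligase that degrades HIF, were 1.82-fold and 1.59-fold higher (adjusted p = 0.04995 and 0.0341). Cited2, which competes with HIF for its coactivators, was lower at 3 and 7 days and most so at 4 weeks, when its signals of 11.23, 10.75 and 10.94 lay below the uninjured 12.58, 12.85 and 12.99 (3.57-fold, adjusted p = 0.00093 by limma). Os9 was the other gene called lower at 3 days.

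Among 34 further HIF targets, 10 were higher and 6 lower at 3 days (47.1%, against 12.5% of all genes, median 0.14), 5 and 5 at 7 days (29.4%, against 8.11%), and 3 and 0 at 2 and at 4 weeks (8.82% each, against 2.48% and 1.91%). The list shares Gys1, Ppp1r3c and Pgm1 with the glycogen genes. Plod2, a collagen lysyl hydroxylase, rose from 12.67, 12.49 and 12.12 to 15.36, 14.99 and 15.22 at 3 days, 6.80-fold (adjusted p = 3.8e-05), and was 3.03-fold higher at 4 weeks (adjusted p = 0.0130). Lox, the collagen crosslinking enzyme lysyl oxidase, was higher at all 4 times, 116-fold at 3 days and 14.1-fold at 4 weeks. Stc2, a secreted glycoprotein, changed direction: it lay at 8.54, 8.82 and 8.47 in uninjured fibroblasts, at 6.18, 6.86 and 6.18 at 3 days, and at 10.58 and 10.43 at 2 weeks. It was 4.62-fold lower at 3 days (adjusted p = 0.00046) and 3.72-fold higher at 2 weeks (adjusted p = 0.0125 by limma). Cxcr4, a chemokine receptor that macrophages also carry, was 6.44-fold higher at 7 days, when the macrophage list was highest.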

How the data were processed

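The authors sorted GFP-positive cells, extracted total RNA, labelled it with a 3′ IVT Pico kit and hybridized it to Clariom S Mouse arrays. The deposited values are gene-level log2 signals, and the submitters' processing notes name Affymetrix Expression Console; the summarization method and the genome build are not given in the sources used here. The study's methods name the Transcriptome Analysis Console. There are 28846 rows in the table, 6704 of them controls. The platform annotation pairs 19527 of 22142 transcript clusters with 1 symbol, 0 with several and 2615 with none, and 33 genes with over 1 row were read from their brightest row, which left 19494 genes. The values were not normalized again.

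Using limma 3.58.1 (R 4.3.3), 1 mean per group was fitted over all 14 arrays (9 residual and 4.53 prior degrees of freedom), with empirical Bayes moderation, and p-values were adjusted by Benjamini-Hochberg over every gene tested in each of 7 comparisons, at 0.05. Folds were taken from differences of mean log2 signals. The number of arrays limits the precision. The script was tested on simulated data. The genes, lists and tests were chosen with earlier results of these data known. All 34 genes are accounted for, with array values for those called; of each other list up to 3 called genes with the largest change per comparison are named, and the rest only by count, apart from Os9. Alternatives were array median centring, quantile normalization, a filter at background, fits of the 2 groups compared, the replicate number or Y-linked class as a block, an intensity trend, the mean of all rows of a gene, Tukey's test, leaving out each array and leaving out the 5 arrays numbered 1; the block by array set was added after the data were seen. Replicate numbers were not taken to pair samples. Promoter windows are those of RefSeq on GRCm38.p6.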

Additional observations from a re-analysis of the deposited data

Results flagged for a closer look

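For 7 pairs of gene and step, the change against uninjured fibroblasts differed between neighbouring times by limma's test of the step itself (adjusted over all genes). Pgk1 and Slc16a1 were lower at 7 days than at 3 days, with log2 differences of -1.05 (adjusted p = 0.0427) and -0.975 (adjusted p = 0.0189), while Ankrd37 was higher, at 1.19 (adjusted p = 0.0483). From 7 days to 2 weeks Epas1 rose by 1.78 (adjusted p = 0.0090) and Adm by 1.56 (adjusted p = 0.0229), and Tpi1 and Pgam1 had differences of -1.17 (adjusted p = 0.0364) and -1.33 (adjusted p = 0.0224). All 7 lost their calls without at least 1 single array, as given beside each gene above. Groups of 3 or fewer arrays were not searched for outlying samples.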

How the results depend on the processing

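No call of the 32 genes turned its direction under any alternative. At an unadjusted p under 0.05 the number called was 18 at 3 days, 4 at 2 weeks, 7 at 4 weeks, 11 from 3 to 7 days, 10 from 7 days to 2 weeks and 1 from 2 to 4 weeks. Tukey's test after adjustment over all genes called 6, 1, 0 and 0 at the 4 times and 0 from 3 to 7 days and from 7 days to 2 weeks; without adjustment it called 4 at 2 weeks and 5 from 3 to 7 days. Fits of the 2 groups compared called 5 at 7 days, 1 at 4 weeks and 0 in either of the first 2 steps. The block by Y-linked class left 0 at 2 weeks and 2 from 7 days to 2 weeks, and the block by array set, added after the data were seen, called 4 at 2 weeks and 9 from 3 to 7 days. Centring on array medians left 1 of 2 calls among the pyruvate entry genes from 3 to 7 days. The median log2 fold change at 7 days was 0.14, and 0.0592 with centring, 0.0752 with quantile normalization and 0.0266 without the arrays numbered 1. Without those arrays it was -0.23 at 2 weeks (-0.0884 with the Y-linked block), -0.16 from 3 to 7 days and 0.30 from 2 to 4 weeks. The cause of these shifts was not tested.

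Leaving out 1 array at a time gave 10 to 12 calls at 3 days, 5 to 8 at 7 days, 0 to 3 at 2 weeks, 0 to 2 at 4 weeks, 0 to 6 from 3 to 7 days, 0 to 4 from 7 days to 2 weeks, 0 to 0 from 2 to 4 weeks and 11 to 15 by the F test. Shares of all genes called in these fits are not given. The medians ran from 0.09 to 0.39, -0.0636 to 0.16, -0.15 to 0.11 and 0.0868 to 0.22 at the 4 times. In the 3 steps they ran from -0.50 to -0.25, -0.14 to 0.12 and 0.14 to 0.21.

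Replicate numbers were checked for pairing. Deviations from the group means correlated at 0.316 to 0.637 among arrays numbered 1, 0.0602 to 0.361 among those numbered 2 and 0.13 to 0.538 among those numbered 3, with medians of 0.457, 0.268 and 0.246, against a median of -0.267 (-0.585 to 0.461) among arrays of different number. Not every pair passed 0.1, so the numbers were not taken to pair samples. By mean correlation 9 of the 14 arrays, all 5 numbered 1 among them, were closest to their own number. With the replicate number as a block 8 genes were called from 3 to 7 days (12.3% of all genes), and 15 at 3 days (19.1%).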

Other observations

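Genes of glycogen and the pentose phosphate route, which branch from glycolysis, were counted in the same fit. Gys1, glycogen synthase, lay at 8.48, 8.83 and 8.95 in uninjured fibroblasts and at 10.91, 11.75 and 11.17 at 3 days, 5.76-fold higher (adjusted p = 1.7e-05 by limma), and was 3.18-fold higher at 7 days (adjusted p = 0.00068). Pygm, the muscle glycogen phosphorylase that breaks glycogen down, went from 11.29, 11.48 and 12.02 to 9.05, 7.55 and 9.89 at 3 days and was 6.81-fold lower (adjusted p = 0.0012). Ppp1r3c, which targets a phosphatase to glycogen and favours its synthesis, was 6.29-fold lower (adjusted p = 0.00011). Of the 15 genes of gluconeogenesis and glycogen, 3 were higher and 2 lower at 3 days (33.3%, against 12.5% of all genes), 3 and 3 at 7 days (40%, against 8.11%) and 0 at 2 and 4 weeks, when 2 and 2 had an unadjusted p under 0.05. Of 8 pentose phosphate genes 2 were higher at 3 days (25%, against 12.5%). Pgd, which releases NADPH, was 2.26-fold higher (adjusted p = 0.0234) and Prps1, which starts nucleotide synthesis, 2.12-fold (adjusted p = 0.0054), and both were lower again at 7 days than at 3 days (adjusted p = 0.0475 and 0.0094).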
